A study of Homo sapiens with 38 samples.

Results

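The comparison set growing IMR90 fibroblasts in which RB had been suppressed by RNA interference (shRB, 2 arrays) against the other 6 arrays of growing cells in the same experiment, which were the MLP vector control, a hairpin against p107 (shp107) and a hairpin against p130 (shp130), with 2 arrays each. The 8 arrays were chosen by their sample labels from 38 in all. IMR90 is a line of normal human lung fibroblasts, and all 8 samples were grown in medium with 10% serum. Of the 6 comparison arrays, 4 are therefore from cells that themselves carry a hairpin, against a relative of RB, and the comparison asks what sets RB suppression apart from the empty vector and from hairpins against either relative. Experiment 1 also covered the same 4 constructs in 0.1% serum, at confluence and in senescence after ras expression, and experiment 2 held vector cells, growing or senescent, with senescent shRB cells. The labels name 1 construct per target and give neither the hairpin sequences nor whether replicates came from separate cultures, so p-values measure the spread between arrays, which may be technical.

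RB, p107 and p130 are the pocket proteins. They bind E2F transcription factors and hold down genes for DNA synthesis and mitosis, and cyclin-dependent kinases release that hold when cells enter S phase. RB binds mainly the activating E2Fs, p107 and p130 mainly the repressive E2Fs, and p107 and p130 also form the DREAM complex, which represses many mitotic genes through a promoter element called the CHR.

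All 8 arrays gave similar distributions. Their median log2 value lay between 3.27 and 3.34, and 22.5% to 23.4% of probe sets had a value above 5. Replicates correlated with r from 0.9905 to 0.9947 over all probe sets. All 12 fibroblast marker genes on the list were expressed, with log2 values from 5.38 to 13.25. None of 8 blood markers passed the filter (highest value 3.71), and of the epithelial and endothelial markers KRT18, TEK, CLDN5 and ROBO4 did. Of these 4, KRT18 ran from 7.50 to 8.83 on the 8 arrays and was not called (0.30 ± 0.46, adjusted p = 0.999). The 3 endothelial markers reached 8.59 at the highest, and none of them was called. The number of arrays limits the precision.

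RB1, which encodes RB, had log2 values of 5.59 and 5.19 on the shRB arrays. It was 9.49 and 9.39 with the vector, 9.46 and 9.64 with shp107, and 10.08 and 9.74 with shp130. The groups were far apart, and the change was -4.25 ± 0.29 (log2 change ± SE, adjusted p = 1.71e-08), a 19.0-fold lower level. A second RB1 probe set was at background on all 8 arrays, between 3.06 and 3.33. The p130 gene RBL2 was 7.72 and 7.88 with shRB, 7.72 and 7.67 with the vector, 7.99 and 6.94 with shp107, and 5.19 and 5.49 with shp130. RBL2 was called higher in shRB cells (0.97 ± 0.22, adjusted p = 0.0314). That call rests on the shp130 arrays, where RBL2 is the hairpin target: the difference was 0.11 against the vector, 0.34 against shp107 and 2.46 against shp130. The p107 gene RBL1 was dim and uneven, at 4.02 and 6.05 with shRB, 4.38 and 4.24 with the vector, 3.18 and 3.95 with shp107, and 5.59 and 4.52 with shp130, and was not called (0.73 ± 0.44, adjusted p = 0.778).

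Over 8511 genes tested with limma, and with p-values adjusted by the Benjamini-Hochberg method, 64 genes were called at an adjusted p under 0.05, which is 0.752%. Of these, 30 rose (0.352%) and 34 fell (0.399%), RB1 included, and 49 changed at least 2-fold. At an unadjusted p under 0.05 there were 707 genes. Among all genes tested, both shRB arrays lay above all 6 others for 706 (8.3%) and below all 6 for 450 (5.29%). Among the genes called, this held for 26 of the 30 that rose and 28 of the 34 that fell. Most calls were lost when either shRB array was left out: without shRB replicate 1 the count was 11, and without replicate 2 it was 10. Without shp107 replicate 2 it was 42. With the spread taken from the 8 growing arrays alone and all 6 others as a single mean, the count was 4, namely RB1, MCM2, MCM6 and C1orf21. With 4 group means in the 8 growing arrays it was 77, but only 22 of the 30 rises and 13 of the 34 falls kept their call.

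The rises were led by genes of DNA replication. To show the element through which E2F acts, the 160 bases before the start of 3 of the replication genes that rose are given from RefSeq promoters of GRCh38.p14, 5′ to 3′ on the strand of the gene. Capitals mark matches on either strand to the E2F words TTTCCCGC, TTTCGCGC, TTTGCCGC and TTTGGCGC.
GINS2 (chr16:85688955-85689114, minus strand): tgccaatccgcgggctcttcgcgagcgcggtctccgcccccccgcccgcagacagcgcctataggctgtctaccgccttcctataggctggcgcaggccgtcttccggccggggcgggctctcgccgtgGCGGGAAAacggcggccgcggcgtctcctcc
MCM6 (chr2:135876444-135876603, minus strand): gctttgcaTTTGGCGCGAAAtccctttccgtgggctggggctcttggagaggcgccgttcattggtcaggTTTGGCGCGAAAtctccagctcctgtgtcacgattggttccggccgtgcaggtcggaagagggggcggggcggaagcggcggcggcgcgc
POLA2 (chr11:65261802-65261961, plus strand): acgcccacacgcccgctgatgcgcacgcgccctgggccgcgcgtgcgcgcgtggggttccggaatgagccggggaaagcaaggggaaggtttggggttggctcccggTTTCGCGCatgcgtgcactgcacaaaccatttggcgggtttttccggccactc

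GINS2 had 1 match, which began 31 bases before the start. MCM6 had 2 stretches of 12 bases, each of which read as a word on 1 strand overlapping a word on the other, so that 4 matches began 152, 148, 90 and 86 bases before the start. POLA2 had 1 match, 53 bases before the start. In windows from 250 bases before to 50 after the start, an E2F word was present in 3.33% of all 27305 promoters and in 5.52% of those of the genes tested. It was present in 15 of the 37 promoters found for the replication list (40.5%), in 7 of 24 for the genes that rose (29.2%) and in 0 of 25 for the genes that fell. Of the 7 replication genes that rose, GINS2, MCM2, MCM6 and POLA2 held one, and PRIM1, TIMELESS and CDC7 did not. A match is a description of the sequence and not evidence of binding.

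GINS2, a subunit of the GINS complex that makes up part of the replicative helicase, rose most. Its log2 values were 8.54 and 9.01 with shRB, against 6.86 and 7.21 with the vector, 7.0 and 6.80 with shp107, and 6.50 and 5.66 with shp130. Both shRB arrays were above all others, and the change was 2.11 ± 0.31 (4.3-fold, adjusted p = 0.0013). MCM2 and MCM6 are subunits of the MCM helicase that is loaded at origins. MCM2 was 7.21 and 7.41 with shRB, and on the other 6 arrays it ran from 5.14 to 5.86 (change 1.71 ± 0.28, adjusted p = 0.00397). MCM6, an abundant transcript, was 10.38 and 10.99 with shRB and 9.40 to 9.62 elsewhere (1.17 ± 0.21, adjusted p = 0.00932). For MCM6 the differences against the vector, shp107 and shp130 were alike, at 1.11, 1.24 and 1.16.

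PRIM1 and POLA2 belong to the primase and polymerase alpha complex, which starts new strands. PRIM1 was 7.12 and 6.02 with shRB, 5.10 and 4.70 with the vector, 4.80 and 4.49 with shp107, and 5.47 and 5.55 with shp130 (1.55 ± 0.31, adjusted p = 0.018). The shRB replicates differed by more than 1 log2 unit, but both were above the rest. POLA2 changed least of the 7, at 5.65 and 5.54 with shRB and 4.55 to 5.02 elsewhere (0.78 ± 0.17, adjusted p = 0.0261). TIMELESS, which protects the moving fork, was 6.61 and 5.82 against 5.0 to 5.54 (1.04 ± 0.21, adjusted p = 0.021). CDC7, the kinase that fires licensed origins, was 5.41 and 4.92 against 3.97 to 4.30 (1.00 ± 0.19, adjusted p = 0.0157). A gene was tested if it exceeded 5 on 2 or more arrays of experiment 1. CDC7 passed through shRB arrays, at 7.39 and 6.98 in senescent cells, where the other constructs had a mean of 3.54. For POLA2 the shRB values were also enough to pass, with at most 5.02 on the other growing arrays.

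Of 43 genes tested on the list for origin licensing and the replication fork, 7 rose and none fell, where 0.352% of all genes tested rose. The list median was 0.49, against 0.036 over all genes tested. The change was above 0 for 40 genes, and 18 had both shRB arrays above all 6 others. Over all genes tested these shares were 56.1% and 8.3%. The count of 7 was 2 without either shRB array, and 2 with all 6 others as a single mean in the 8 growing arrays. MCM3 (1.53, adjusted p = 0.073), POLE2 (1.38, adjusted p = 0.076), GINS1 (1.20, adjusted p = 0.267) and MCM5 (1.19, adjusted p = 0.158) had changes as large as genes that were called and were not called themselves. The mean over the list was 7.45 and 7.48 on the shRB arrays, 6.70 and 6.79 with the vector, 6.82 and 6.81 with shp107, and 7.09 and 6.98 with shp130. The shp130 arrays thus stood between shRB and the other groups. In RNA from whole cultures, more cells in S phase or mitosis and more RNA per cell cannot be told apart.

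None of 11 genes for enzymes of deoxynucleotide synthesis was called, and their median was 0.18. TYMS, thymidylate synthase, was 11.65 and 11.57 with shRB and 10.80 to 11.19 elsewhere (0.63 ± 0.26, adjusted p = 0.47). Of 22 DNA repair and Fanconi anaemia genes found on the arrays, only 10 passed the filter, and none was called. All 10 changes were above 0, against 56.1% of all genes tested, with a median of 0.66. FANCL, a ubiquitin ligase of that pathway, was 8.62 and 8.71 with shRB and 6.59 to 8.20 elsewhere (1.02 ± 0.29, adjusted p = 0.145). In chromatin assembly and heterochromatin, 0 of 25 were called, 24 changes were above 0 and the median was 0.43. At an unadjusted p under 0.05 these 3 lists held 2, 5 and 10 genes, against 707 of all 8511 genes tested.

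Mitotic genes formed the other group among the rises. The CHR, TTTGAA on either strand, is shown in capitals in the 160 bases before the start of KIF4A and CCNF, which both rose (GRCh38.p14).
KIF4A (chrX:70289944-70290103, plus strand): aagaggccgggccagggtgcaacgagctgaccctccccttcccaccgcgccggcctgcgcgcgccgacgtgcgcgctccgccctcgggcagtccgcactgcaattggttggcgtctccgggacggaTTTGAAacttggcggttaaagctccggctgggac
CCNF (chr16:2429287-2429446, plus strand): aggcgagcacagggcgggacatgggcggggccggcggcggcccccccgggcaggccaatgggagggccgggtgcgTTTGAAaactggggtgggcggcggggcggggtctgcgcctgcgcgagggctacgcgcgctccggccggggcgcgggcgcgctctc

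The CHR word began 34 bases before the start in KIF4A and 85 before it in CCNF. In the 300-base windows it was present in 15.4% of all promoters, in 10.2% of those of the genes tested and in 33 of the 45 found for the mitosis list (73.3%). It was in only 1 of the 37 promoters of the replication list (2.7%), and E2F words were in 3 of the 45 mitosis promoters (6.67%). Among called genes, 8 of the 24 promoters of those that rose held the CHR word, BGN, FKBP5 and POSTN among them, which are not mitotic genes. Of the mitotic genes that rose, KIF4A, CCNF and SMC2 held it and TACC3 did not. For FOXM1 and CENPM no promoter was found.

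KIF4A, a motor protein of mitotic chromosomes, was 5.82 and 7.01 with shRB, 5.20 and 4.35 with the vector, 5.41 and 5.16 with shp107, and 4.87 and 5.26 with shp130. The shRB replicates differed by more than 1 log2 unit, and both lay above the rest (1.37 ± 0.29, adjusted p = 0.024). FOXM1, a transcription factor of genes for the G2 and M phases, was 5.73 and 6.03 against 4.33 to 5.04 (1.21 ± 0.24, adjusted p = 0.0187). CENPM, a centromere protein, was 6.41 and 5.44 with shRB, and shp107 replicate 1 at 5.49 overlapped with these (1.19 ± 0.28, adjusted p = 0.0418). SMC2, the condensin subunit, was 7.04 and 7.38 against 5.68 to 6.44 (1.02 ± 0.23, adjusted p = 0.037). TACC3, a spindle protein, was 5.86 and 5.65 against 4.52 to 5.0 (0.99 ± 0.19, adjusted p = 0.016). CCNF, which encodes cyclin F and was not on the mitosis list, was 5.61 and 5.65 against 4.43 to 5.04 (0.86 ± 0.18, adjusted p = 0.0214). For TACC3 and CCNF the shRB arrays were by themselves enough to exceed 5, the level set for testing. The other growing arrays hardly exceeded it.

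Of 56 mitosis genes tested, 5 rose and none fell, where 0.352% of all genes tested rose. Their median was 0.56, 51 changes were above 0, and 26 genes had both shRB arrays above all 6 others. Over all genes tested these last shares were 56.1% and 8.3%. BUB1 (1.44, adjusted p = 0.103) and CDC20 (1.34, adjusted p = 0.152) were not called. The list mean was 8.38 and 8.51 with shRB, 7.51 and 7.82 with the vector, 7.84 and 7.78 with shp107, and 8.05 and 8.08 with shp130. Median differences against the 3 groups were 0.79, 0.61 and 0.38 in that order, and for the replication list they were 0.65, 0.50 and 0.42. The count of 5 fell to 3 without MLP replicate 1, to 2 without shp107 replicate 2, and to 1 and 0 without shRB replicates 1 and 2.

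**Figure D1:**
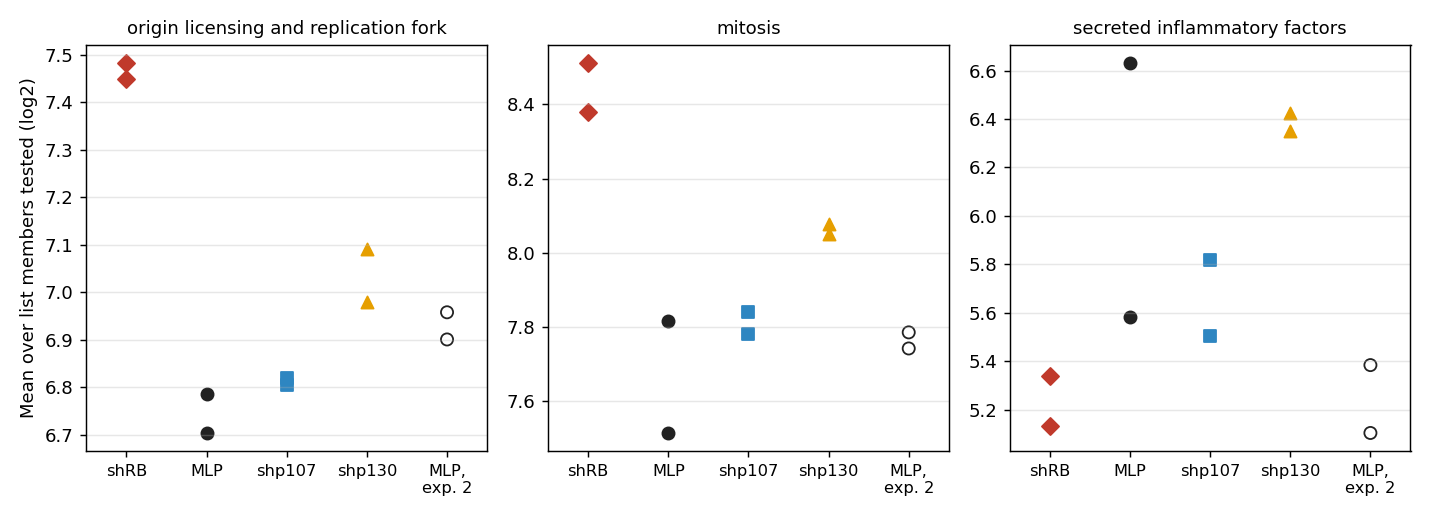
Mean log2 value over the tested members of 3 lists on each growing array (1 point per array, 2 per group; open circles are the growing vector arrays of experiment 2, which was fitted apart). The shRB arrays were highest for replication (7.45 and 7.48) and mitosis (8.38 and 8.51), and for inflammatory factors they lay below the other arrays of experiment 1 and level with those of experiment 2.

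Among G1 and S phase regulators, 1 of 13 rose, where 0.352% of all genes tested did. CCNE2 encodes cyclin E2, a partner of CDK2 at S phase entry. It was 6.48 and 7.51 with shRB, 4.96 and 4.72 with the vector, 4.84 and 5.37 with shp107, and 6.48 and 6.05 with shp130 (1.59 ± 0.34, adjusted p = 0.0255). The lower shRB array and the higher shp130 array were both at 6.48, and the differences against the vector, shp107 and shp130 were 2.15, 1.89 and 0.73. CCNE1, for cyclin E1, was dim at 4.78 and 5.24 against 4.08 to 4.5 (0.70 ± 0.20, adjusted p = 0.161). CDK4 was 10.09 and 10.18 against 9.21 to 9.67 (0.64 ± 0.16, adjusted p = 0.0734), and neither passed the test.

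Cyclin D2 had the lowest values of the group in shRB cells. CCND2 was 3.26 and 3.32 there, at the level of the array median, and 4.10 to 5.81 elsewhere (-1.59 ± 0.44, adjusted p = 0.122). CCND1 was 11.31 and 11.34 against 11.26 to 11.64, within the range of the others (-0.13 ± 0.19, adjusted p = 0.999). Changes were 0.10 for CCNA2, -0.28 for CDK2, 0.07 for CDK6, -0.52 for CCND3, 0.65 for SKP2, 0.13 for CKS1B, 0.00 for CKS2 and 0.26 for FBXO5, and none was called. Of the E2F family, E2F3 (-0.18), E2F5 (-0.11), E2F6 (0.12) and E2F7 (0.22) and the partners TFDP1 (0.57) and TFDP2 (-0.18) were not called. The pocket protein and E2F list therefore held RB1 and RBL2 as its only called members of 9 tested. The list had 13 members on the arrays, and those not named here failed the filter and were not tested.

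None of the 5 CDK inhibitors tested was called, and 1 had an unadjusted p under 0.05. CDKN2A, which encodes p16 and ARF, was 8.38 and 8.43 with shRB and 7.77 to 8.24 elsewhere (0.46 ± 0.19, adjusted p = 0.445). The groups did not overlap, but both shRB arrays were above all 6 others for 8.3% of all genes tested. CDKN1A, for p21, was 10.55 and 9.94 against 9.99 to 10.51 (-0.09 ± 0.19, adjusted p = 0.999). CDKN1B changed by 0.21, and CDKN1C and CDKN2B, both near background, by 0.15 and 0.12. No gene of 27 p53 targets was called (median -0.06, 2 at an unadjusted p under 0.05). Of all 8511 genes tested, 707 had an unadjusted p that low.

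The remaining rises were of varied function. NSD2, a histone H3 lysine methyltransferase, was 7.64 and 7.17 with shRB and 5.20 to 6.32 elsewhere (1.68 ± 0.36, adjusted p = 0.0261). SUPT16H, a subunit of the FACT histone chaperone, was 8.77 and 8.84 against 7.50 to 8.28 (0.87 ± 0.19, adjusted p = 0.0261). PHGDH, the first enzyme of serine synthesis, was 7.37 and 7.36 against 5.55 to 6.32 (1.27 ± 0.23, adjusted p = 0.00808). FKBP5, a co-chaperone of the glucocorticoid receptor, was 7.06 and 6.83 against 4.55 to 5.83 (1.70 ± 0.26, adjusted p = 0.00188). All 4 had both shRB arrays above the other 6. The transcripts DPYSL3 (1.18), PXMP2 (1.23), ITGBL1 (1.27), CCBE1 (1.20), TMEM200B (1.14), C1orf21 (1.11) and OSR1 (1.08) rose in the same way. PRSS12 (1.53) and the noncoding LINC01279 (1.40) rose too, but shp107 arrays overlapped with shRB for both.

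Of 34 collagen and matrix genes, 2 rose, where 0.352% of all genes tested did. POSTN, the matrix protein periostin, was 11.22 and 11.13 with shRB, 9.36 and 9.21 with the vector, 10.22 and 9.66 with shp107, and 9.45 and 9.10 with shp130 (1.68 ± 0.30, adjusted p = 0.00933). BGN, the proteoglycan biglycan, was 7.53 and 7.28 with shRB and 7.15 on shp107 replicate 1, with 5.01 on both shp130 arrays (1.46 ± 0.29, adjusted p = 0.018). The list median was 0.08, close to that of all genes.

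**Figure D2:**
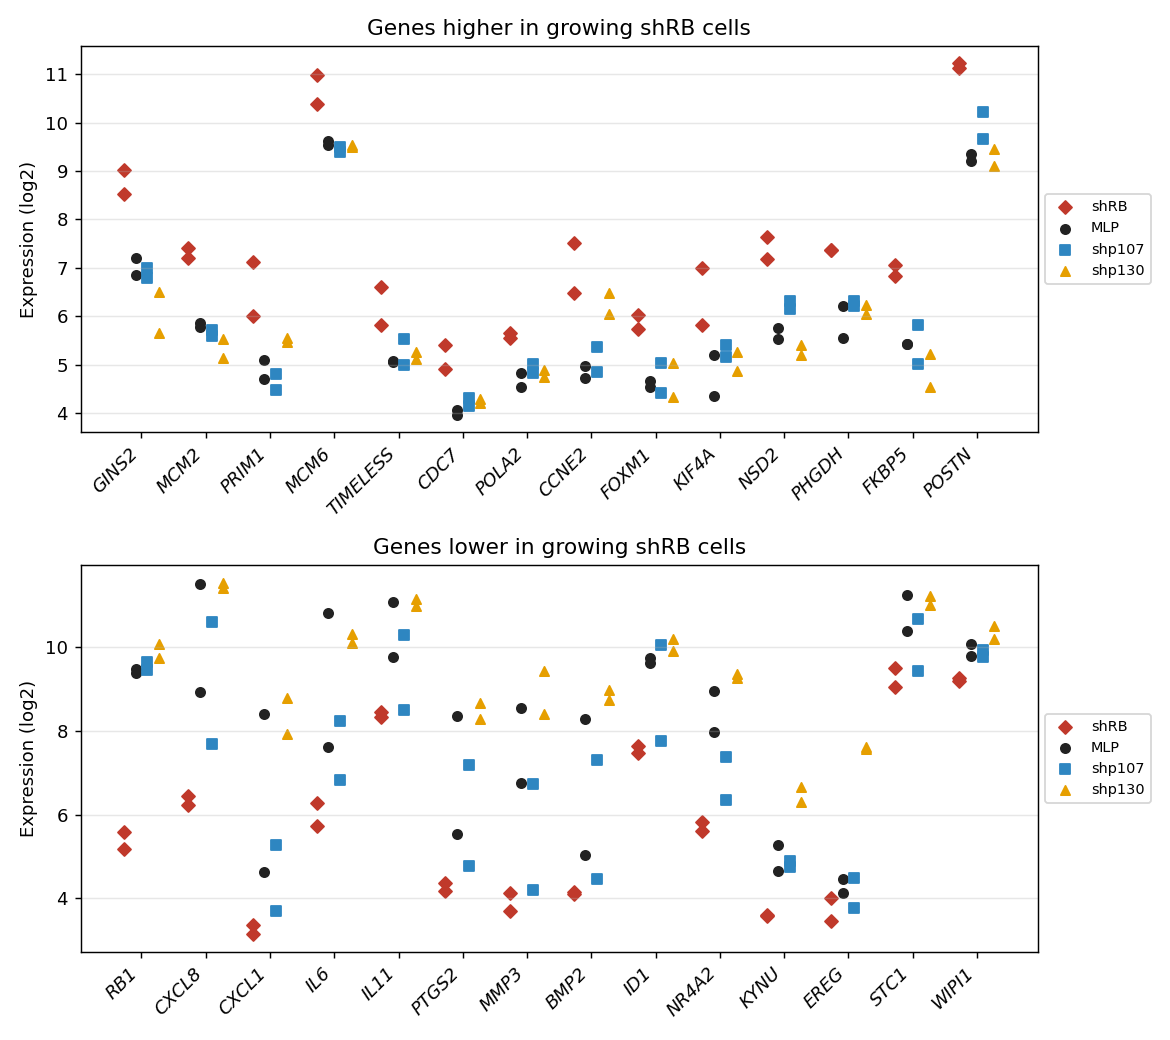
Log2 expression of 14 genes that rose (top) and 14 that fell (bottom) in growing shRB cells, 1 point per array and 2 arrays per group. For MCM2 and MCM6 the shRB points stood clear of 6 closely spaced points, whereas for CXCL8, IL6, PTGS2 and BMP2 the 6 other arrays themselves spread over 3 log2 units or more.

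The falls were led, after RB1, by secreted inflammatory factors. Promoters of 3 of them are shown with matches to the NF-kB word GGNNTTTCC, on either strand, in capitals, since NF-kB is the textbook activator of these genes (GRCh38.p14, 160 bases before the start).
CXCL8 (chr4:73740409-73740568, plus strand): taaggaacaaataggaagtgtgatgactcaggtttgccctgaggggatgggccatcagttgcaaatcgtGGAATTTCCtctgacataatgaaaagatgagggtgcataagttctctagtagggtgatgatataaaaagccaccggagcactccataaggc
CXCL1 (chr4:73869233-73869392, plus strand): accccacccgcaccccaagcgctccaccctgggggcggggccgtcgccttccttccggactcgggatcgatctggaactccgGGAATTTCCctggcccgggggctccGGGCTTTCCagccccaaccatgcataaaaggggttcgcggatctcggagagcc
IL6 (chr7:22727040-22727199, plus strand): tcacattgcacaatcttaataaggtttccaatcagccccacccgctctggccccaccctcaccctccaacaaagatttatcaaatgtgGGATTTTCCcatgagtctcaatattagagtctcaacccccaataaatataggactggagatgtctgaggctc

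The word began 91 bases before the start in CXCL8, 78 and 53 before it in CXCL1 and 72 before it in IL6. In the 300-base windows it was present in 6.26% of all promoters, 6.96% of those of the genes tested and 13 of the 23 found for the inflammatory list (56.5%). Of the genes that fell it was in 5 of 25 promoters, those of CXCL8, CXCL1, IL6, NFKBIZ and INSC, but not of PTGS2 and IL11. It was in 2 of 24 for the genes that rose.

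CXCL8, the neutrophil chemokine interleukin 8, was 6.45 and 6.23 with shRB, 11.51 and 8.92 with the vector, 7.70 and 10.60 with shp107, and 11.42 and 11.54 with shp130. Both shRB arrays were below all 6, which themselves ran from 7.70 to 11.54 (-3.94 ± 0.54, 15.3-fold lower, adjusted p = 0.000499). CXCL1, a related chemokine, was 3.38 and 3.15 with shRB, a level near the array median, so the size of its fall is a lower limit. It was 8.41 and 4.64 with the vector, 3.69 and 5.28 with shp107, and 7.92 and 8.79 with shp130 (-3.19 ± 0.65, adjusted p = 0.0197). IL6, the cytokine interleukin 6, was 5.73 and 6.29 with shRB, 10.81 and 7.61 with the vector, 6.83 and 8.23 with shp107, and 10.10 and 10.32 with shp130 (-2.98 ± 0.68, adjusted p = 0.037). MLP replicate 1 and both shp130 arrays were high for all 3 genes, and shp107 replicate 1 was the nearest to shRB.

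PTGS2 and IL11 had a similar pattern over the arrays. PTGS2, the inducible enzyme of prostaglandin synthesis, was 4.38 and 4.18 with shRB, 8.36 and 5.55 with the vector, 4.77 and 7.19 with shp107, and 8.68 and 8.28 with shp130 (-2.86 ± 0.59, adjusted p = 0.021). IL11, a cytokine of the IL6 family, was 8.45 and 8.34 with shRB and 8.50 on shp107 replicate 1, while the other 5 arrays ran from 9.77 to 11.15 (-1.90 ± 0.40, adjusted p = 0.024). NFKBIZ, a nuclear regulator of NF-kB, was 9.03 on both shRB arrays and 9.41 to 11.06 elsewhere (-1.44 ± 0.29, adjusted p = 0.0197).

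Of 28 inflammatory genes tested, 5 fell and none rose, where 0.399% of all genes tested fell. Their median was -0.49, 24 changes were below 0, and 10 genes had both shRB arrays below all 6 others. Over all genes tested these last shares were 43.9% and 5.29%. IL1B (-1.40, adjusted p = 0.55) and CXCL2 (-1.18, adjusted p = 0.587) were not called, and CXCL12 had a change of 1.04 (adjusted p = 0.553). The list mean was 5.34 and 5.13 with shRB, 6.63 and 5.58 with the vector, 5.50 and 5.82 with shp107, and 6.35 and 6.42 with shp130. The 2 vector replicates differed by over 1 log2 unit in this mean, more than the vector's lower replicate differed from either shRB array. The count of 5 was 3 without MLP replicate 1 or without shp130 replicate 2, 1 without either shRB array, and 1 when the spread came from the 8 growing arrays with 4 group means.

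Proteases and growth factors followed. MMP3, the matrix protease stromelysin 1, was 4.14 and 3.69 with shRB, 8.54 and 6.76 with the vector, 4.21 and 6.73 with shp107, and 8.40 and 9.43 with shp130 (-3.43 ± 0.52, adjusted p = 0.00187). BMP2, a ligand of the bone morphogenetic protein pathway, was 4.15 and 4.11 against 8.30 and 5.05, 4.46 and 7.31, and 8.97 and 8.73 in the same order of groups (-3.0 ± 0.63, adjusted p = 0.0214). ID1, a target of that pathway and an inhibitor of helix-loop-helix factors, was 7.48 and 7.63 with shRB, 7.75 on shp107 replicate 1 and 9.63 to 10.20 on the other 5 arrays (-2.00 ± 0.39, adjusted p = 0.0157). STC1, a secreted glycoprotein, was 9.51 and 9.06, and shp107 replicate 1 at 9.44 lay between these (-1.38 ± 0.32, adjusted p = 0.0398).

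EREG, the EGF receptor ligand epiregulin, was a case of 1 comparison group. It was 3.45 and 4.0 with shRB, 4.46 and 4.14 with the vector, 3.78 and 4.48 with shp107, and 7.56 and 7.63 with shp130. The change of -1.62 ± 0.20 (adjusted p = 0.000183) thus averaged -0.57, -0.40 and -3.87 against vector, shp107 and shp130. SERPINE2, an inhibitor of serine proteases, fell by 0.85, and PAPPA, a protease that cleaves IGF binding proteins, by 0.88. For SERPINE2, shp107 replicate 1 at 9.67 lay between the shRB arrays, at 9.49 and 9.74. TGFB2, a ligand of the TGF-beta family, was 5.98 and 6.15 against 6.61 to 7.72 (-1.15 ± 0.25, adjusted p = 0.0261). Of 36 genes on the protease and growth factor list, 5 fell and none rose, where 0.399% of all genes tested fell. The list median of -0.05 lay near that of all genes. The count of 5 was 2 without shRB replicate 1, 1 without replicate 2, 1 with 4 group means in the 8 growing arrays, 0 with the 6 others as a single mean there, 1 without the shp130 group and 3 without the vector group.

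KYNU, kynureninase of tryptophan breakdown, differed little within each group. It was 3.58 and 3.61 with shRB, 5.27 and 4.66 with the vector, 4.89 and 4.76 with shp107, and 6.68 and 6.29 with shp130 (-1.83 ± 0.18, adjusted p = 1.02e-05). NR4A2, an orphan nuclear receptor and the only called member of 23 immediate early genes, was 5.83 and 5.62 against 8.96 and 7.97, 6.36 and 7.38, and 9.26 and 9.36 (-2.49 ± 0.33, adjusted p = 0.000499). EGR1, a member of the same list, was 9.26 and 9.71 against 8.39 to 9.36 and was not called (0.50 ± 0.27, adjusted p = 0.691). HHIP, which binds hedgehog ligands, was near background with shRB at 3.63 and 3.52 against 4.10 to 6.14 (-1.45 ± 0.20, adjusted p = 0.000499). RB1, CXCL8, KYNU, NR4A2, EREG and HHIP were the 6 genes called with any 1 of the 8 arrays left out, and none of the rises was.

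Other falls came from several compartments. NPC1, which moves cholesterol out of lysosomes, fell by 1.67 and GLA, the lysosomal alpha-galactosidase, by 0.79. WIPI1, a protein of autophagosome formation, was 9.21 and 9.27 against 9.77 to 10.51 (-0.81 ± 0.15, adjusted p = 0.0102). TNFRSF10D, a decoy receptor for TRAIL, was 9.35 and 9.27 against 9.79 to 10.56 (-0.84 ± 0.19, adjusted p = 0.0314), and unlike most falls it was smallest against shp130. IL13RA2, a decoy receptor for interleukin 13, fell by 2.63, A2M, a broad protease inhibitor, by 2.29, and TCIM by 2.42. The rest were CCDC68 (-1.78), CREG1 (-1.54), INSC (-1.36), SHC4 (-1.27), FMN1 (-1.08), SOCS2-AS1 (-0.96), CAB39L (-0.89), YIPF3 (-0.89) and ETS2 (-0.77). For NPC1, IL13RA2 and SHC4, shp107 replicate 1 lay between the shRB arrays, at 6.99, 3.44 and 3.95. IL13RA2 was near background with shRB, at 2.82 and 3.55, so its fall is a lower limit.

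No gene was called in 4 lists: contractile and myofibroblast genes (17 tested), sterol synthesis (18), interferon response (14) and apoptosis genes named as E2F targets (10). At an unadjusted p under 0.05 they held 2, 1, 0 and 1 genes, against 707 of all 8511 genes tested. Their medians were 0.00, 0.11, 0.14 and -0.01. IFIT3, an interferon-induced gene, was 6.54 and 6.34 with shRB and 5.12 to 6.16 elsewhere (0.86 ± 0.41, adjusted p = 0.609). The apoptosis genes CASP8 (0.44) and PMAIP1 (-0.44) moved by similar amounts in opposite directions, and neither was called.

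**Figure D3:**
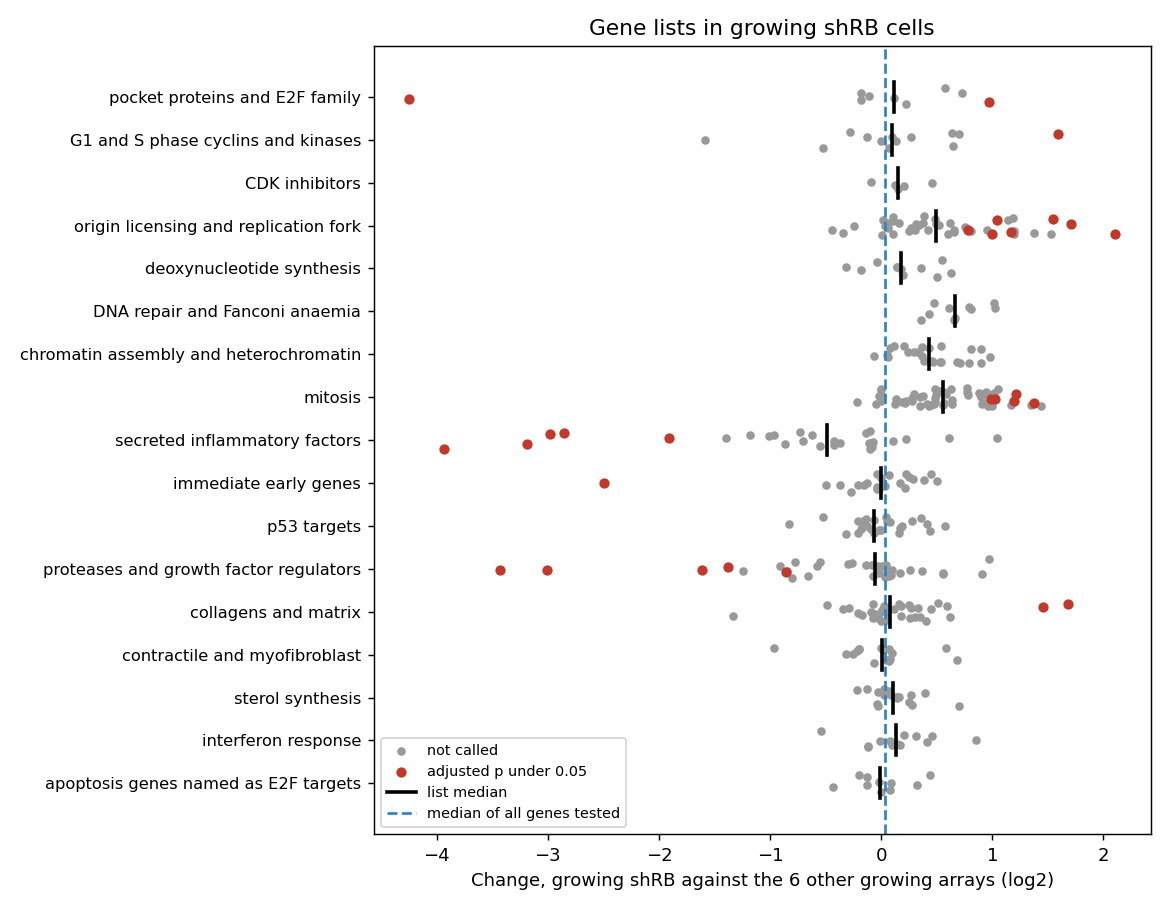
Log2 change of each tested gene in 17 lists, growing shRB against the 6 other growing arrays (1 point per gene, red where the adjusted p was under 0.05, bars at the list medians, dashed line at the median of all genes, 0.036). Replication (0.49), mitosis (0.56), repair (0.66) and chromatin (0.43) medians lay right of the dashed line with few red points, and the inflammatory list (-0.49) lay left of it.

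The 3 comparison groups did not contribute alike. Against the vector alone 16 genes were called (0.188%), against shp107 alone 1, RB1 (0.0117%, 247 at an unadjusted p under 0.05), and against shp130 alone 112 (1.32%). These 3 comparisons share the shRB arrays. All 30 rises and all 34 falls had the same sign against each group, which the average over groups favours. Median rises were 1.31 against the vector, 0.99 against shp107 and 1.33 against shp130. Median falls were -1.47, -0.93 and -2.39. The fall was largest against shp130 for 31 of the 34 genes and smallest against shp107 for 31. Among the rises, the change was largest against shp130 for 17 and smallest against shp107 for 17.

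Between the comparison groups themselves, no gene was called for shp107 against the vector (0%, 117 at an unadjusted p under 0.05), 5 for shp130 against the vector (0.0587%) and 16 for shp107 against shp130 (0.188%). With 2 of the 3 groups as the comparison, shRB gave 23 calls without shp130, 98 without shp107 and 39 without the vector. Without shp130 there were 14 rises and 9 falls. Without the vector there were 18 and 21, and without shp107 there were 46 and 52.

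**Figure D4:**
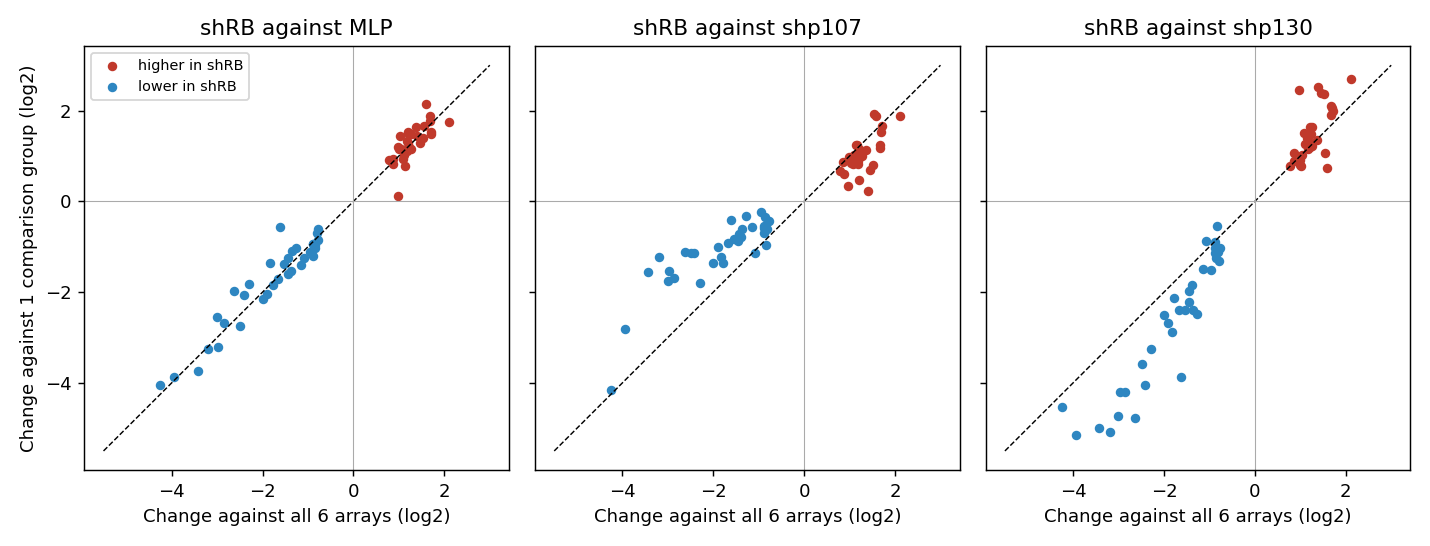
Log2 change of the 64 called genes in growing shRB cells against each comparison group (vertical) plotted by the change against all 6 arrays (horizontal), with the dashed line of equality. Except for TNFRSF10D and FMN1, falls lay above the line against shp107 (median -0.93) and below it against shp130 (median -2.39), and rises lay nearer to the line in all 3 panels.

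Experiment 2 gave a further pair of growing vector arrays, which were set beside these values without a test, since the experiments were fitted apart. Both shRB arrays were above both of them for 24 of the 30 genes that rose and below both for 30 of the 34 that fell. The genes were called from these same shRB arrays, which favours such a separation, so these counts are no independent repeat. The same separation was not counted over all genes tested. GINS2 was 7.22 and 6.72 there, MCM2 was 5.75 and 6.21, and MCM6 was 9.13 and 9.41, all below the shRB values. The exceptions among rises were POSTN, KIF4A, CENPM, CDC7, TACC3 and CCNF. POSTN was 11.60 and 11.39, higher than with shRB, and TACC3 was 5.79 and 5.84, level with it. The exceptions among falls were IL6, A2M, NFKBIZ and FMN1, with IL6 at 6.26 and 5.50. CXCL8 at 8.77 and 8.56 lay near the lower vector replicate of experiment 1, and CXCL1 at 4.51 and 4.19 lay just below it. For the inflammatory list the mean in experiment 2 was 5.38 and 5.10, the same range as with shRB, and below that of both vector arrays of experiment 1. The part of the experiment in these levels was not tested.

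The genes called in growing cells were then followed in the other states, where the same contrast of shRB with the other 3 constructs uses other arrays. In low serum, 28 of the 30 rises kept their sign, where 48.3% of all genes had a change above 0. Of these rises 4 were called higher, where 0.141% of all genes were. These were CCNE2 (2.36 ± 0.34, adjusted p = 0.00237), MCM6 (1.5 ± 0.21, adjusted p = 0.00237), GINS2 (1.60 ± 0.31, adjusted p = 0.032) and PXMP2 (1.24 ± 0.23, adjusted p = 0.0244). Of the falls, 31 of 34 kept their sign, where 51.7% of all genes had a change below 0. Called lower were 2, RB1 and WIPI1, which were the only genes of all 8511 called lower in that state (0.0235%). CXCL8, with -0.88 ± 0.54 (adjusted p = 0.65), was not called.

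At confluence, 26 rises kept their sign (41.5% of all genes were above 0) and 11 were called higher (4.77% of all genes). All 34 falls kept their sign (58.5% of all genes were below 0) and 25 were called lower (8.25% of all genes). The median change of the falls there was -1.77, against -0.08 over all genes. DPYSL3 (2.60), BGN (2.18), PHGDH (2.03), PRSS12 (1.98), POSTN (1.72) and MCM6 (1.37) rose, whereas KIF4A (0.04), FOXM1 (0.13) and SMC2 (-0.20) were not called. Among falls, IL13RA2 fell by 6.40, MMP3 by 5.44, PTGS2 by 5.18, IL11 by 4.70, EREG by 4.63 and KYNU by 4.28.

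In senescent cells, 24 rises kept their sign (47.8% of all genes were above 0) and 17 were called higher (8.46% of all genes). CCNE2 (5.65 ± 0.34), MCM6 (3.77 ± 0.21), CDC7 (3.65 ± 0.19), MCM2 (2.30 ± 0.28) and GINS2 (2.21 ± 0.31) led these. Of the falls 16 of 34 kept their sign, near the share of all genes below 0 (52.2%). Among the falls 7 were called lower (7.65% of all genes), and IL11 was called higher (1.21 ± 0.40, adjusted p = 0.0445). In the senescent cells of experiment 2, 26 rises kept their sign (45.6% of all genes were above 0) and 20 were called higher (10.9% of all genes). Of the falls 18 kept their sign, again near the share of all genes below 0 (54.4%). Among them 7 were called lower (9.24% of all genes). A further 6 falls were called higher, among them IL6 (1.51 ± 0.25), IL11 (1.39 ± 0.20) and CXCL1 (0.84 ± 0.18). No gene that rose in growing cells was called lower in these 4 comparisons, although 2 to 6 of the 30 had changes below 0 in each. Genes that fell were called in the opposite direction in senescent cells of both experiments and in neither of the other states.

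The difference between the shRB effect in growing cells and in another state was tested directly. Because the 64 genes were called in growing cells, this test favours a larger effect there. Against senescent cells, 296 genes were called (3.48%), 24 of the 64 among them. The rises of CCNE2, MCM6 and CDC7 were smaller in growing cells, by -4.06 ± 0.48, -2.60 ± 0.30 and -2.65 ± 0.27. The measured change was more positive in growing cells for KIF4A (1.54), CCBE1 (1.71), ITGBL1 (1.45) and TACC3 (1.16). These genes did not rise in senescent cells, where their shRB values were below 5, the level set for testing. There KIF4A was 3.87 and 3.58 with shRB against a mean of 3.90, and CCBE1 was 4.90 and 4.35 against 5.13. For all 17 differing falls the measured change was more negative in growing cells, led by IL6 (-4.43 ± 0.96, adjusted p = 0.00932), CXCL8 (-4.11 ± 0.76, adjusted p = 0.00294) and CXCL1 (-3.93 ± 0.91, adjusted p = 0.0154). The 17 include HHIP and SOCS2-AS1, which were near background with every construct in senescent cells. The other constructs had means of 3.52 and 3.24 there, so a fall could not be measured. SHC4, also among the 17, was dim there, with a mean of 4.06.

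Against confluent cells, 59 genes were called (0.693%). Of the falls, the measured change was more negative at confluence for IL13RA2, EREG, IL11 and KYNU, by 3.78, 3.02, 2.79 and 2.45. For KYNU, EREG and IL13RA2 both falls are lower limits, since shRB cells were near background in both states: KYNU was 3.58 and 3.61 with shRB in growing and 3.65 and 3.47 in confluent cells, and the mean of the other constructs was 5.42 and 7.84. EREG and IL13RA2 likewise had means of 5.34 and 5.81 with the other constructs in growing cells and 7.92 and 9.26 at confluence. IL11 was above background throughout, at 8.45 and 8.34 with shRB in growing cells and 5.02 and 5.17 at confluence, with other constructs at 10.30 and 9.79. Among rises, DPYSL3 rose less in growing cells (-1.42 ± 0.28, adjusted p = 0.0137) and CCNF more (1.09 ± 0.25, adjusted p = 0.0496). CCNF did not rise at confluence, where it was 4.31 and 3.92 with shRB against a mean of 4.34. Against low serum only KYNU (-1.68 ± 0.26, adjusted p = 0.0183) and HHIP (-1.59 ± 0.28, adjusted p = 0.0497) were called, 2 of all 8511 genes (0.0235%), with 299 at an unadjusted p under 0.05. Both genes were near background with every construct in low serum, where the other constructs had means of 3.31 and 3.19, so a fall could not be measured there.

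**Figure D5:**
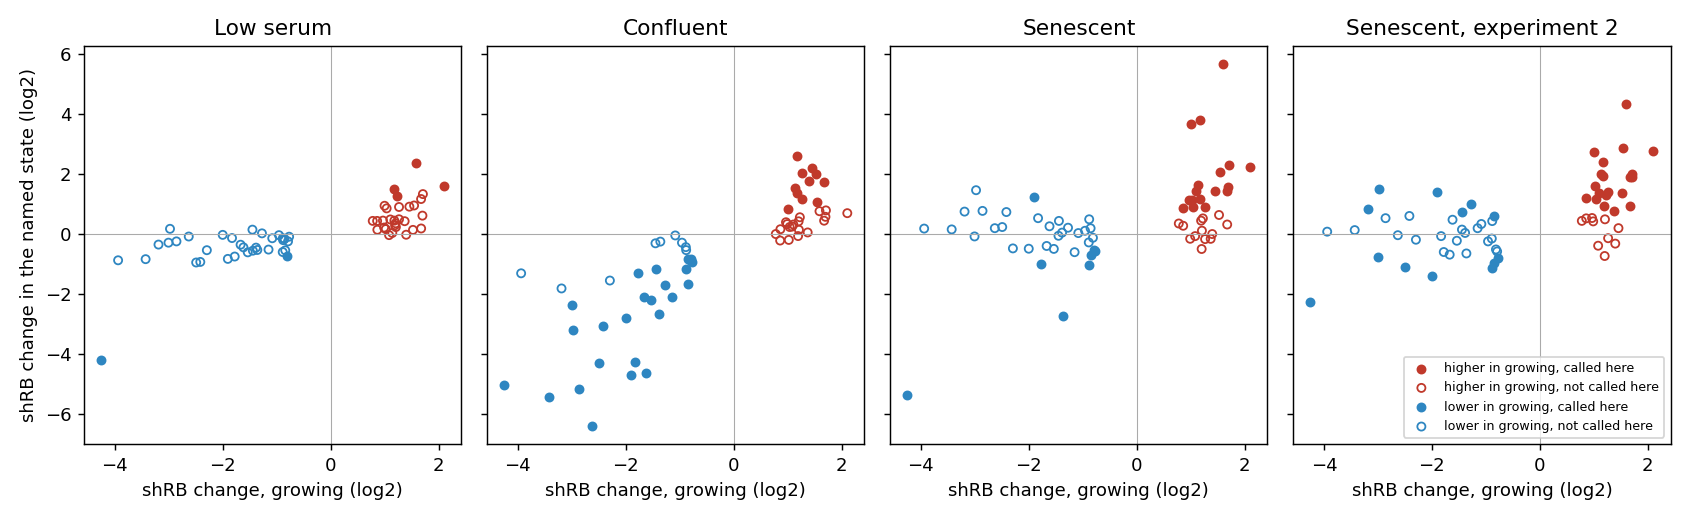
Log2 change of shRB cells in low serum, at confluence and in senescence (vertical; experiment 1, and experiment 2 in the last panel) for the 64 genes called in growing cells, by their change in growing cells (horizontal), filled where the adjusted p in that state was under 0.05. Rises lay mostly above 0 in every panel, and falls were below 0 at confluence for all 34 genes and scattered about 0 in senescence apart from RB1 (-5.38) and INSC (-2.73).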

How the data were processed

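Total RNA (1 µg) was labelled and hybridised to Affymetrix arrays, 1 per sample. The authors deposited log2 values, 1 per probe set and array, for which the submitters' processing notes name GCRMA. The sources used here do not say whether the 38 arrays were summarised jointly. GCRMA draws dim probe sets toward a common background, so falls to a level near the array median are lower limits.

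The annotation tied 41091 of 54613 probe sets to a single gene and 1801 to several, and left 11721 unnamed. A gene (19775 in all) was read from its probe set with the highest mean, and 8511 were tested, those that exceeded 5 (log2) on 2 or more arrays of experiment 1. One limma model (version 3.58.1, R 4.3.3) with 16 group means was fitted to the 32 arrays of experiment 1 (residual degrees of freedom 16, prior 4.85). The contrast was shRB minus the mean of the other 3 growing groups. Experiment 2 (6 arrays, residual degrees of freedom 3) was fitted apart. P-values were adjusted by the Benjamini-Hochberg method, with calls under 0.05. The fit was tested on simulated data.

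The comparison and the gene lists were chosen with earlier results of these data known. Named genes were RB1, RBL1 and RBL2, the top 15 rises and top 15 falls by size among called genes with both shRB arrays outside the range of the other 6 (provisional symbols left out), all pocket protein, E2F, cyclin and CDK inhibitor genes tested, and up to 4 called members of each other list, or the 2 with the largest changes where fewer than 2 were called. The other 28 called genes, and further list members, were named after their values were seen. Motif words were counted in RefSeq promoters of GRCh38.p14 with Python 3.11.15. Alternatives changed the arrays giving the spread, the block, normalization, filter, probe set rule, variance model and arrays left out.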

Additional observations from a re-analysis of the deposited data

Results flagged for a closer look

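The shRB effect differed between growing cells and another state, by limma's test of the difference with Benjamini-Hochberg adjustment, for the following genes, given as the log2 effect in growing cells minus that in the other state. The genes were called in growing cells, which favours a larger effect there.

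Against senescent cells, the measured change was more positive in growing cells for CCBE1 (1.71), KIF4A (1.54) and ITGBL1 (1.45). These did not rise in senescent cells, where their shRB values were below 5, the level set for testing. The rises of CCNE2, the cyclin E2 gene (-4.06), and MCM6, the helicase subunit (-2.60), were larger in senescent cells.

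The measured change was more negative in growing than in senescent cells for the secreted factors IL6 (-4.43), CXCL8 (-4.11), CXCL1 (-3.93), MMP3 (-3.57), IL11 (-3.12) and EREG (-1.86). The same held for the enzyme PTGS2 (-3.62) and for TCIM (-3.14), NR4A2 (-2.72) and KYNU (-2.35). These genes did not fall in senescent cells, where the shRB mean of each was above that of the other constructs. There IL6 was 12.58 and 12.43 with shRB against a mean of 11.05, and CXCL8 was 12.98 on both arrays against 12.81. KYNU also differed from low serum (-1.68), where it was near background with every construct and a fall could not be measured.

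Against confluent cells, the measured change was more negative at confluence for EREG (3.02), IL11 (2.79) and KYNU (2.45), and the rise of DPYSL3 was larger there (-1.42). EREG and KYNU were near background with shRB in both states, so both falls are lower limits and the difference does not compare their sizes.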

How the results depend on the processing

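With 2 arrays per group, the number of calls depends on the model and on single arrays, and no named gene that was called reversed its direction under any alternative. Of 77 named genes tested, 36 were called, and none of these calls changed under the replicate block, quantile normalization or a variance trend. The replicate numbers did not pair the samples (correlations of replicate deviations from -0.18 to 0.16), and the replicate block gave 74 calls in growing cells against 64. No alternative moved the median of all genes by over 0.1. With all 6 others as 1 mean in the 8 growing arrays, 4 genes were called (3 higher, 1 lower), with 2 in the replication list, 0 in the mitosis list and 0 each in the inflammatory and protease lists, where the main model had 7, 5, 5 and 5. With 4 means in those arrays, 49 rises were called in place of 30, but only 22 of the 30 and 13 of the 34 falls kept their call. CXCL8 was among the calls lost (limma adjusted p = 0.0591). In that fit 1 inflammatory and 1 protease gene fell, and calls were 2 against shp107, 2 for shp130 against vector and 3 between shp107 and shp130. Comparison groups taken 2 at a time, an alternative chosen after seeing the data, gave 23 calls (14 higher, 9 lower) without shp130, 98 (46 and 52) without shp107 and 39 (18 and 21) without the vector. Mitosis calls were then 2 without shp130 and 1 without the vector, and inflammatory and protease calls were each 1 and 3. The filter and probe set rule moved mitosis calls to 3 (no filter) and 1 (stricter filter), and inflammatory calls to 3 (no filter, and mean of probe sets). The replicate block gave 29 calls against the vector alone, in place of 16, and 2637 in senescent cells of experiment 2, in place of 1710. Quantile normalization gave 37 against the vector, 5 against shp107, 8 for shp130 against vector and 40 in low serum, and the mean of probe sets gave 2 against shp107 and 32 in low serum. The 2 differences between growing and low serum cells became 1 under the replicate block, quantile normalization, no filter, the stricter filter and the trend, and 0 with the mean of probe sets. Leaving out each growing array in turn gave 10 to 80 calls (3 to 37 higher, 7 to 43 lower), with 2 to 7 in the replication list, 0 to 6 in mitosis, 1 to 5 in the inflammatory and 1 to 5 in the protease list. Calls ranged from 1 to 29 against the vector, 1 to 4 against shp107, 33 to 109 against shp130, 0 to 3 for shp107 against vector, 2 to 10 for shp130 against vector and 3 to 24 between shp107 and shp130. Differences between states ranged from 0 to 6 for low serum, 22 to 66 for confluent and 128 to 288 for senescent cells. A lone remaining array was assumed to vary like the other groups. The causes of these shifts were not tested, apart from there being fewer arrays or other genes tested by construction.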
